A study of Mus musculus with 6 samples.

Results

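The genes described here encode the machinery that docks secretory granules at the plasma membrane and fuses them with it: syntaxins, SNAP25-type SNAREs and VAMPs, their regulators, the granule Rabs and the exocyst. They were listed by name, with earlier results of these data known. Of 44 listed genes, 41 had a row in the deposited table of 12016 genes, and all 41 were among its 11478 tested genes. Unc13d, Syt7 and Sytl2 had no row and were not analysed here.

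The acinar cell of the pancreas stores digestive enzymes in zymogen granules and releases them at its apical membrane when calcium rises. Fusion is driven by SNARE proteins: a VAMP on the granule zips together with a syntaxin and a SNAP25-type protein on the target membrane, guided by a Sec1/Munc18 protein. Rab GTPases and their effectors mark granules and bring them to the membrane, the exocyst complex tethers vesicles there, and the ATPase NSF with its SNAP adaptors takes spent SNARE complexes apart. In acinar cells VAMP8 and VAMP2, syntaxins 2, 3 and 4, SNAP23, MUNC18B (Stxbp2), RAB3D and RAB27B have been placed in this pathway.

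RNA was taken from the pancreas of 6 untreated male mice aged 3 weeks, of which 3 were wild type (C57Bl6/N) and 3 were OCaR1-/- (written OCar1-/- in the sample labels). The strain field of the labels reads C56Bl6/N for all 6 samples, so both genotypes carry the same strain label. Whether the mice were littermates and how the null allele was made are not stated in these sources. Poly(A)-selected RNA was sequenced as single reads of 50 bases.

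Levels are in FPKM, fragments per kilobase of transcript adjusted for library size, so they can be compared between genes. The authors' table gives 1 FPKM value per genotype that combines the 3 libraries of that genotype, and no value of a single mouse. No SD therefore stands beside any level, overlap between mice cannot be shown, and the depth is unknown. Called genes, and those described as having risen or fallen, are the ones with a Cuffdiff q under 0.05 as deposited by the authors. A fold change is the knockout level over the wild-type level, so log2 values above 0 mean a higher FPKM in knockout pancreas. In pairs of values the knockout is given first unless stated otherwise. The targeted gene Tmem63a, which encodes OCaR1, stood at 4.91 FPKM in knockout and 18.3 FPKM in wild type.

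The samples were whole pancreas, in which acinar RNA dominated: the carboxypeptidase gene Cpa1 had 21972 FPKM in knockout and 23509 FPKM in wild type. Of 6 acinar markers 3 had a row, of which 1 was called lower and 0 higher, and their summed level in the knockout was 96.6% of that in wild type. Within that sum the lipase gene Pnlip fell (7662 and 15748 FPKM, q = 0.0407, authors' deposited table), and Cel, another lipase gene, had 30443 and 22960 FPKM without a call. Markers of several other cell types were higher in the knockout. The summed level of 6 macrophage markers was 58.0 FPKM in knockout and 26.4 FPKM in wild type, with 6 of 6 called higher. That of 6 islet markers was 4083 and 2545 FPKM (6 of 6 called higher) and that of 6 fat cell markers 189 and 85.4 FPKM (5 of 6 called higher). Endothelial, stromal and duct marker sums were at 133%, 127% and 127% of wild type, with 2 of 4, 2 of 5 and 1 of 3 called higher. The endothelial marker Kdr had the lower value in the knockout (3.86 and 4.54 FPKM) and was not called. The 5 smooth muscle markers were at 37.8% of wild type and all 5 were called lower. Of 4 B and plasma cell markers 2 had a row, and their sum was 6.28 FPKM in knockout and 2.52 FPKM in wild type. No T cell marker and no neuronal marker, Snap25 included, had a row. Every row exceeds 1 FPKM in at least 1 genotype. Mpeg1, Emr1, Cd79b and Retn passed this limit only through the knockout, and Actg2 and Cnn1 only through wild type. In such bulk samples fewer cells of a type and less RNA per cell cannot be told apart.

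Among the exocytosis genes the 3 listed plasma membrane syntaxins, Stx2, Stx3 and Stx4a, had the higher FPKM in the knockout. Stx1a, a further plasma membrane syntaxin outside the member list, had the lower FPKM and was not called (2.78 and 4.15 FPKM, q = 0.0787, authors' deposited table). Of the members, Stx2 and Stx4a rose, no other member was called, and none of the 41 tested members fell. The 2 calls are 4.88% of the members, beside 7.54% called in either direction, 4.2% called higher and 3.35% called lower among all 11478 tested genes. The share of called members was thus below the share called in either direction and near the share called higher. At an unadjusted p under 0.05, 3 members were higher and 4 lower, which is 7 of 41 or 17.1%, beside 17.5% of all tested genes (8.36% higher and 9.11% lower). These shares of all tested genes, 7.54% called and 17.5% at an unadjusted p under 0.05, stand beside each family count below. The median log2 fold change of the members was -0.04, and that of all tested genes was -0.03. Apart from Stx2, every member lay between -0.51 and 0.47 on the log2 scale.

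**Figure D1:**
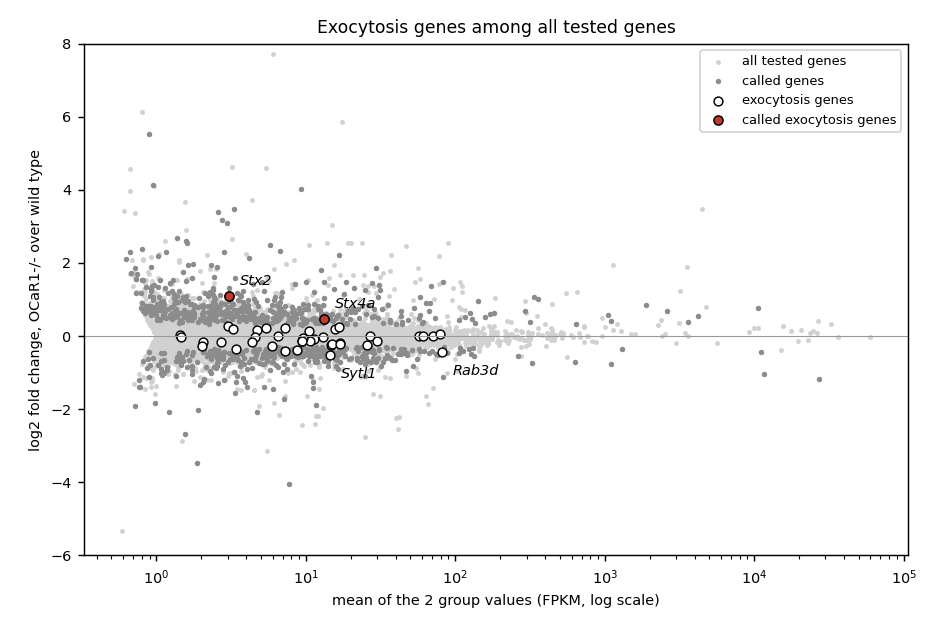
Log2 fold change of OCaR1-/- over wild type (vertical axis) against the mean of both group values in FPKM (horizontal log axis) for all tested genes with a fold change in light grey, called genes in dark grey and the 41 exocytosis genes as circles, of which the 2 called ones are red. Most exocytosis genes sit near 0, with Stx2 at 1.10 and Stx4a at 0.47 above and Sytl1 at -0.51 and Rab3d at -0.44 below.

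The members differed far more in level than between genotypes. In wild type they ran from 1.42 FPKM for Cplx2 to 93.5 FPKM for Rab3d. The 5 most abundant members were Rab3d, Napa, Stxbp2, Rab11a and Vamp8 in wild type. The same 5 led in the knockout, where Napa came first at 80.0 FPKM and Rab3d stood at rank 3 with 69.1 FPKM. In wild type 97.5% of all tested genes had a lower FPKM than Rab3d, and 22.0% had a lower FPKM than Stx2. Stx2 moved from rank 39 of the 41 members in wild type to rank 32 in the knockout, and Stx4a from rank 19 to rank 13.

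**Figure D2:**
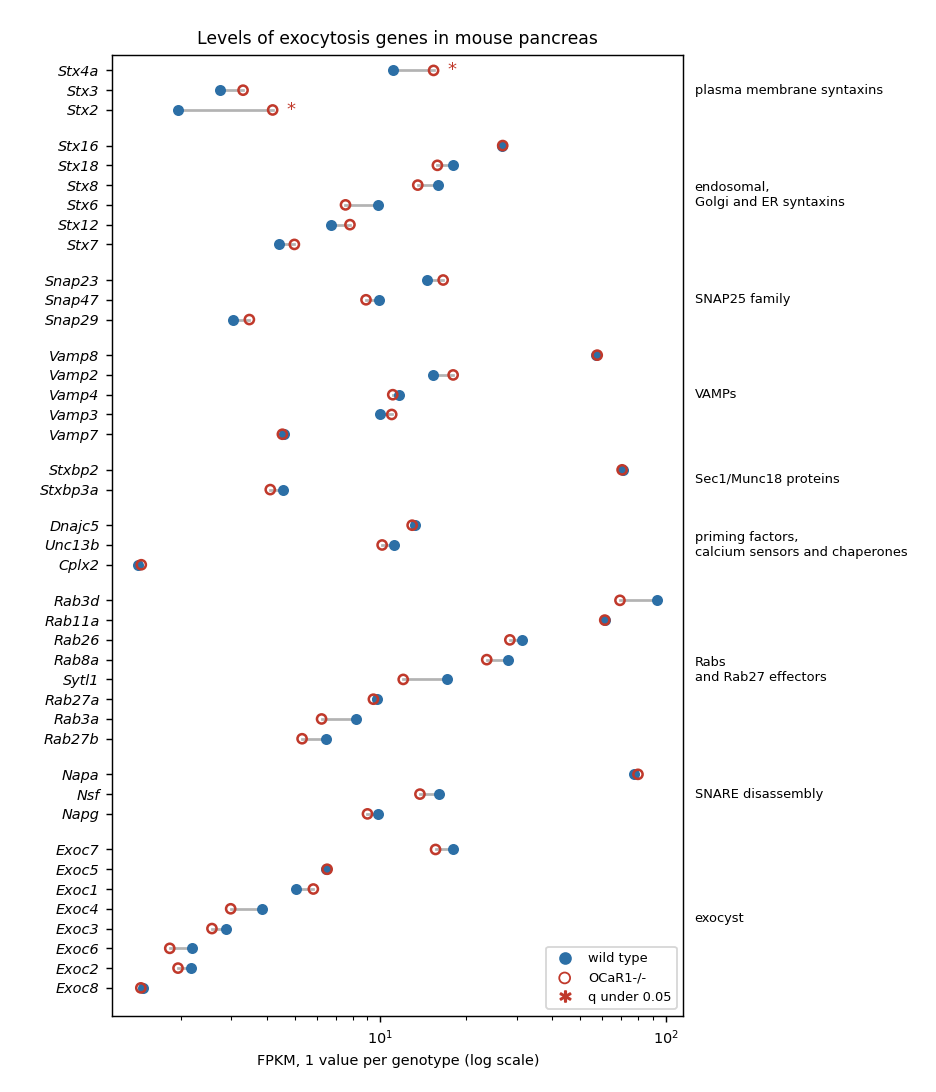
FPKM (horizontal log axis) of each of the 41 tested exocytosis genes, grouped by protein family, in wild type (blue, filled) and OCaR1-/- (red, open), with 1 combined value per genotype and an asterisk where q is under 0.05. The abundant members Napa, Stxbp2, Rab11a and Vamp8 have nearly coincident values, Stx2 and Stx4a are shifted to the right in the knockout, and Rab3d is shifted to the left from 93.5 to 69.1 FPKM.

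Of the listed members, syntaxins 2, 3 and 4 were grouped here as plasma membrane syntaxins, although syntaxin 3 is also a granule protein. Stx2 (ENSMUSG00000029428), on the minus strand of GRCm38 chromosome 5 from 128984557 to 129008574, encodes a syntaxin that has been found on the apical membrane of acinar cells. It had 4.19 FPKM in knockout and 1.95 FPKM in wild type, a 2.15-fold rise (log2 fold change 1.10, q = 0.00723, authors' deposited table). Stx4a (ENSMUSG00000030805), which encodes syntaxin 4 of the basolateral membrane, had 15.4 FPKM in knockout and 11.1 FPKM in wild type, a 1.39-fold rise (log2 fold change 0.47, q = 0.0216, authors' deposited table). Stx3 encodes a syntaxin found mainly on zymogen granules and apical membranes. It had 3.30 and 2.74 FPKM and was not called (log2 fold change 0.27, unadjusted p = 0.0388 and q = 0.244 in the authors' deposited table). All 3 genes thus had the higher level in the knockout, beside 44.9% of all tested genes.

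Added together, the 3 listed plasma membrane syntaxins came to 22.8 FPKM in knockout and 15.7 FPKM in wild type, 145% of the wild-type sum. Stx1a was not part of this sum. Stx4a was the most abundant of them in both genotypes, with 67.2% of the sum in the knockout and 70.2% in wild type. The share of Stx2 was 18.3% in the knockout and 12.4% in wild type. With this, the lower pair of the order changed places: in wild type Stx3 stood above Stx2, and in the knockout below it. The table holds no spread for these shares.

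Other measurements differed between the same genotypes. Macrophage, islet, fat cell, endothelial, stromal and duct marker sums were higher in the knockout (220%, 160%, 222%, 133%, 127% and 127% of wild type). The smooth muscle marker sum was lower (37.8% of wild type). The part of these differences in the rises of Stx2 and Stx4a was not tested. The GENCODE M21 model of Stx4a lies on the plus strand of chromosome 7 from 127824294 to 127849019. The interval of its row in the table is longer than this model and the use of strand in counting is not stated, so reads from outside the gene may have been counted with it.

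The sequences before the start sites of the called syntaxin genes are shown because these are the members that changed, and that of Sytl1 because it had the lowest log2 fold change of the members. Each is the 250 bases before the RefSeq start, 5′ to 3′ on the gene's own strand in GRCm38.p6. Capitals mark the E-box CAGCTG, a site type of basic helix-loop-helix factors.
Stx2, chr5:129008573-129008822, minus strand: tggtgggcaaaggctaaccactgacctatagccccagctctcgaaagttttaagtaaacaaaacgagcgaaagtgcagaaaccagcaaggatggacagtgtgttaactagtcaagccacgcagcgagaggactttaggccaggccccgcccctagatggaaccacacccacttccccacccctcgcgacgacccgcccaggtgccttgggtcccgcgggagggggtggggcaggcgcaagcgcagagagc
Stx4a, chr7:127841558-127841807, plus strand: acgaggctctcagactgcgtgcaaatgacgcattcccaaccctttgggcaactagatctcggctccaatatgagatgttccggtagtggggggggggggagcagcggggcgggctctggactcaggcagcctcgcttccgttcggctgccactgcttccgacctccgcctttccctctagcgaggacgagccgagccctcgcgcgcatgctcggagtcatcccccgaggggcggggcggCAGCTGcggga
Sytl1, chr4:133263088-133263337, minus strand: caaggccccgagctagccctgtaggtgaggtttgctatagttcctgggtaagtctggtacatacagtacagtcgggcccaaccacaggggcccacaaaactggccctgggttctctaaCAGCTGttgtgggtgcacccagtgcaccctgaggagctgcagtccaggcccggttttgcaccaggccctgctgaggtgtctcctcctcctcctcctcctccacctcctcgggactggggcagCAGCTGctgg

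The Stx4a window held 1 CAGCTG, beginning 11 bases before the start. The Sytl1 window held 2, beginning 132 and 10 bases before the start. The Stx2 window held neither CAGCTG nor the related E-box CACGTG, a site type of the MITF and TFEB family, and these GC-rich windows had 60.0% (Stx2), 66.4% (Stx4a) and 61.6% (Sytl1) G and C. A further RefSeq start of Stx2 is not shown. The GENCODE M21 models begin before these RefSeq starts. That of Stx4a begins at 127824294, so its whole window lies inside the model. That of Sytl1 reaches 133263113 and covers the end of its window, including the CAGCTG nearest the start. That of Stx2 reaches 129008574 and covers only the last bases of its window.

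Both E-boxes read the same on either strand, do not overlap each other and were searched in all 32851 windows of this length in the RefSeq table, which also covers noncoding genes. CAGCTG was found in 13.0% and CACGTG in 6.02% of these windows. Of the members, 34 matched the table with 44 windows. Vamp2, Vamp3, Vamp7, Dnajc5, Rab27b, Rab26 and Napg had no match. CAGCTG was present in 9 of the 44 windows (20.5%), in Cplx2, Exoc4, Rab27a, Rab3a, Stx12, Stx4a, Stx7 and Sytl1. CACGTG was also present in 9 of the 44 windows (20.5%), in Exoc1, Napa, Nsf, Rab27a, Stx6, Stxbp2, Unc13b and Vamp4. The log2 fold changes ran from -0.51 to 0.47 over the first 8 genes and from -0.37 to 0.21 over the second 8, with 1 call (Stx4a) and 0 calls by Cuffdiff. Of the first 8, Stx4a, Sytl1 and Exoc4 had an unadjusted p under 0.05, and of the second 8, 0 had one, beside 17.5% of all tested genes.

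The syntaxins of endosomes, Golgi and endoplasmic reticulum showed no shared direction. Of 6 tested, 3 had the higher and 3 the lower level in the knockout, none was called by Cuffdiff, 0 had an unadjusted p under 0.05, and the median log2 fold change was -0.08. Stx16, a Golgi syntaxin, was the most abundant, at 26.8 FPKM in knockout and 26.6 FPKM in wild type. Stx6, which serves traffic between Golgi and endosomes, had 7.54 and 9.77 FPKM, a log2 fold change of -0.37 (q = 0.484, authors' deposited table). Stx8 had 13.5 and 15.9 FPKM and Stx18, an endoplasmic reticulum syntaxin, 15.8 and 17.9 FPKM. The endosomal syntaxin genes Stx7 (4.99 and 4.41 FPKM) and Stx12 (7.82 and 6.71 FPKM) had the higher value in the knockout. Stx6 and Vamp4 lie on chromosome 1, as does Tmem63a, at a distance of 25.7 and 18.3 Mb from it.

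The SNAP25-type genes were uncalled as well. Snap23, whose product takes the place of SNAP25 in non-neuronal secretory cells, had 16.6 FPKM in knockout and 14.6 FPKM in wild type (q = 0.806, authors' deposited table). It made up 57.3% of the family sum in the knockout and 53.1% in wild type. Snap47 had 8.90 and 9.85 FPKM. Snap29, a SNARE of autophagosome fusion, had 3.47 and 3.03 FPKM. The family median was 0.18, none of the 3 had an unadjusted p under 0.05, and Snap29 and Snap47 share their intervals with other rows (Pi4ka and Tmem191c, and Jmjd4).

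The VAMPs stood between -0.08 and 0.24 on the log2 scale, and none was called. Vamp8, the main VAMP of the zymogen granule together with Vamp2, had 57.5 FPKM in knockout and 57.1 FPKM in wild type, a ratio of 1.01 (log2 fold change 0.01, q = 0.980, authors' deposited table). It supplied 56.4% of the summed VAMP level in the knockout and 57.9% in wild type. Vamp2 had 18.0 and 15.3 FPKM (log2 fold change 0.24, q = 0.447, authors' deposited table), so the level of Vamp8 was 3.20 times that of Vamp2 in the knockout and 3.74 times in wild type. The remaining VAMPs serve endosomal and lysosomal routes. Vamp3 had 11.0 and 9.95 FPKM, in an interval shared with Camta1 and Per3, Vamp4 had 11.0 and 11.6 FPKM, and the lysosomal Vamp7 had 4.53 and 4.61 FPKM. The family median was 0.01, and of the 5 tested genes 0 were called by Cuffdiff and 0 had an unadjusted p under 0.05.

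**Figure D3:**
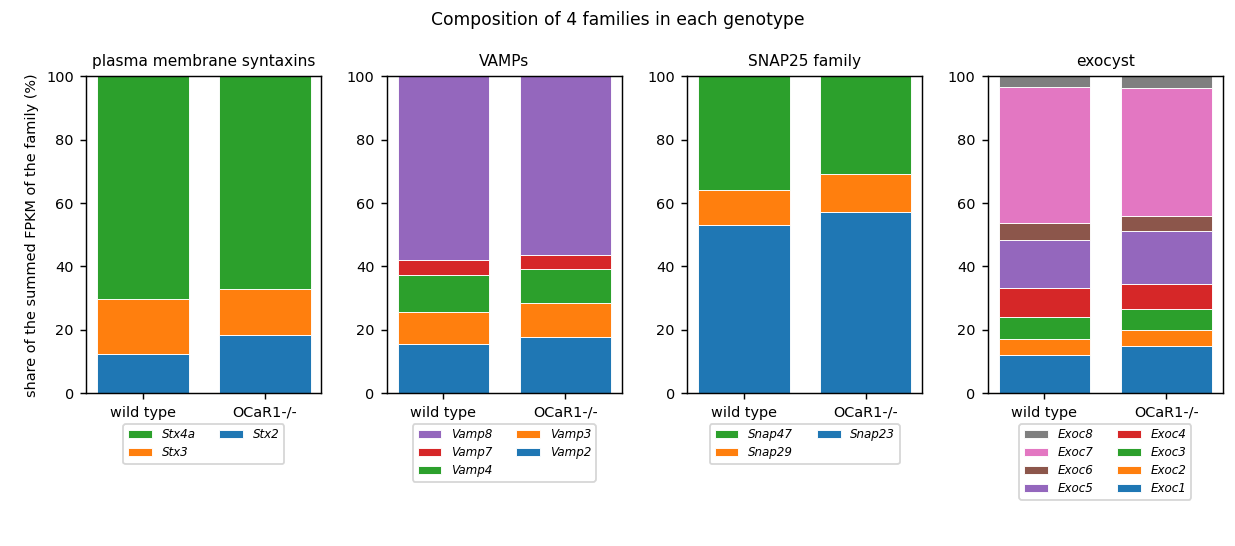
Share of each gene in the summed FPKM of its family (vertical axis, percent) in wild type and OCaR1-/-, for the plasma membrane syntaxins, the VAMPs, the SNAP25 family and the exocyst, from 1 combined value per genotype. Stx2 takes 12.4% of its family in wild type and 18.3% in the knockout, while Vamp8 holds 57.9% and 56.4% of its own.

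No partner that acts on assembled or spent SNAREs was called by Cuffdiff. Stxbp2, which encodes the Munc18 protein of epithelial and blood cell secretion, had 70.3 FPKM in knockout and 70.7 FPKM in wild type. Its level was 17.1 times that of Stxbp3a, the partner of syntaxin 4, in the knockout and 15.5 times in wild type. Stxbp3a itself had 4.11 and 4.57 FPKM (q = 0.772, authors' deposited table), in the same samples in which Stx4a rose. Of the disassembly genes, Napa (alpha-SNAP) had 80.0 and 77.5 FPKM, Nsf 13.8 and 16.0 FPKM and Napg (gamma-SNAP) 9.01 and 9.84 FPKM. The priming factor gene Unc13b had 10.1 and 11.2 FPKM, Dnajc5, which encodes the granule chaperone CSP alpha, 12.9 and 13.3 FPKM, and the complexin gene Cplx2 1.45 and 1.42 FPKM. None of these 8 genes had an unadjusted p under 0.05, beside 17.5% of all tested genes.

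None of the Rab genes, nor the RAB27 effector gene Sytl1, was called. Of these 8 tested genes 7 had the lower FPKM in the knockout, beside 55.1% of all tested genes and 72.2% of 36 other Rabs. The exception was Rab11a, with 61.1 FPKM in both genotypes, whose log2 fold change of 0.00 turned below 0 when levels were rescaled without the most abundant genes and stayed above 0 when centred on the median of all tested genes. The median log2 fold change was -0.27. At an unadjusted p under 0.05, 3 of the 8 were lower and 0 higher, beside 9.11% and 8.36% of all tested genes, and 0 were called by Cuffdiff at q under 0.05, beside 7.54%. The 8 genes summed to 215 FPKM in knockout and 255 FPKM in wild type, 84.3% of the wild-type sum. Most of this difference came from the uncalled Rab3d, with 69.1 FPKM in knockout and 93.5 FPKM in wild type.

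Rab3d encodes the Rab of mature zymogen granules. It had 69.1 FPKM in knockout and 93.5 FPKM in wild type, a log2 fold change of -0.44 (unadjusted p = 0.0394 and q = 0.246 in the authors' deposited table). Its level was 11.1 times that of Rab3a, the neuronal paralog, in the knockout and 11.4 times in wild type. Rab3a had 6.22 and 8.23 FPKM (log2 fold change -0.41), in an interval shared with Mpv17l2.

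RAB27B and RAB27A bring granules to the plasma membrane through effectors of the synaptotagmin-like family. Rab27b had 5.31 and 6.46 FPKM (log2 fold change -0.28, unadjusted p = 0.0180 and q = 0.152 in the authors' deposited table). Rab27a had 9.45 and 9.74 FPKM and was the larger part of the pair in both genotypes, with 64.0% in the knockout and 60.1% in wild type. The effector gene Sytl1 had 12.0 and 17.1 FPKM, the lowest ratio of the 41 members (70.4% of the wild-type level, log2 fold change -0.51, unadjusted p = 0.0245 and q = 0.182 in the authors' deposited table). None of the 3 unadjusted differences in this family passed the threshold.

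The Rabs of granule maturation and apical delivery were not called. Rab26, a Rab of maturing acinar granules, had 28.4 and 31.3 FPKM, in an interval shared with Traf7. Rab8a, which acts in apical transport, had 23.6 and 28.0 FPKM (q = 0.668, authors' deposited table). In the same samples the sum of 3 acinar markers stood at 96.6% and the smooth muscle marker sum at 37.8% of wild type. Within the acinar sum Pnlip was called lower, and Cel had the higher FPKM in the knockout without a call. Macrophage, islet, fat cell, endothelial, stromal and duct sums were higher. The part of these differences in the levels of the Rab genes was not tested.

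**Figure D4:**
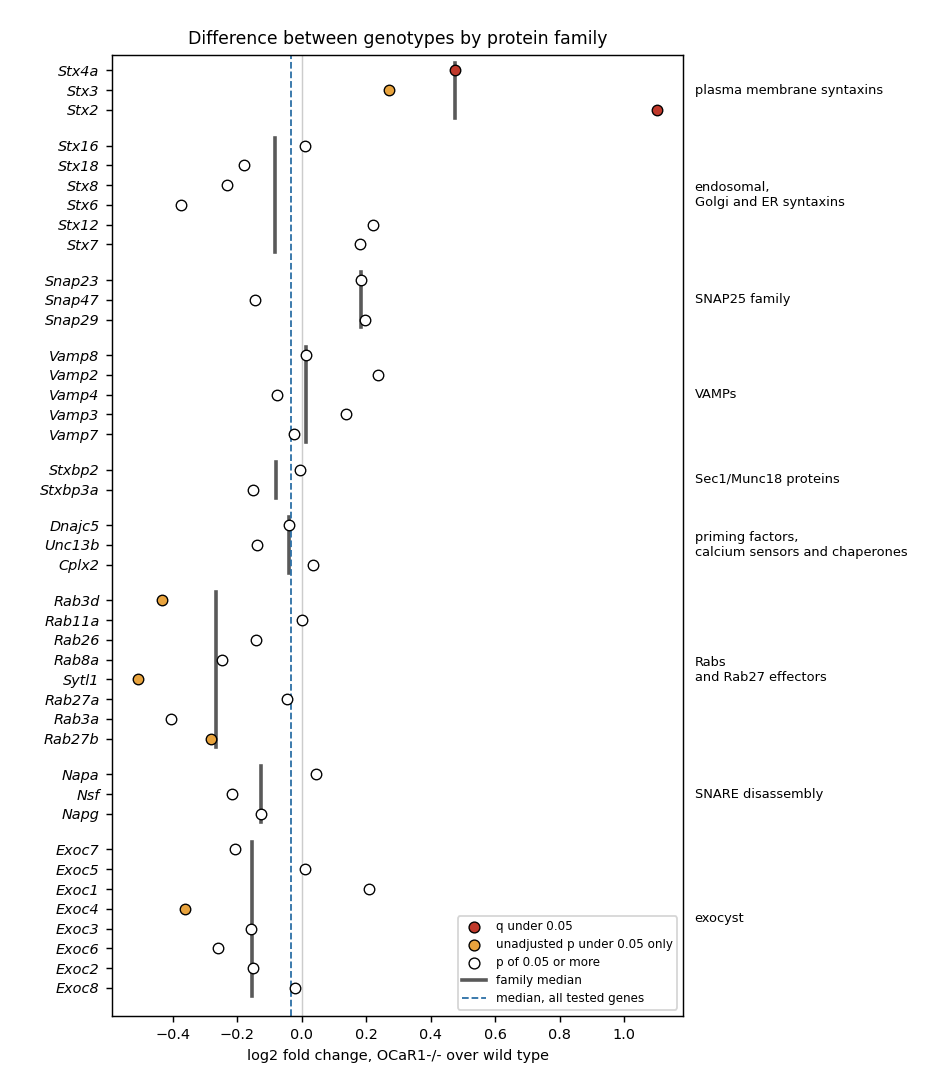
Log2 fold change of OCaR1-/- over wild type for the 41 exocytosis genes by family, with red points for q under 0.05, orange points for an unadjusted p under 0.05 only, grey bars for family medians and a dashed line for the median of all tested genes (-0.03). The plasma membrane syntaxins lie to the right (median 0.47) and most genes of the list of Rabs and Sytl1 to the left (median -0.27), while the VAMPs centre on 0.01.

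The 8 subunits of the exocyst, which tethers vesicles to the plasma membrane before SNAREs engage, were all measured and none was called. Exoc7, which encodes a subunit that binds membrane lipids, was the most abundant, at 15.6 FPKM in knockout and 18.0 FPKM in wild type, and Exoc8, which encodes a RAL-binding subunit, the least abundant, at 1.44 and 1.47 FPKM. Although the subunits form 1 complex, the level of Exoc7 was thus 10.8 times that of Exoc8 in the knockout and 12.3 times in wild type. Of the 8 genes 6 had the lower level in the knockout (5 after centring on the median of all tested genes), and the family median was -0.15.

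Exoc4 was the exocyst gene with the smallest p-value, at 2.98 and 3.84 FPKM (log2 fold change -0.36, unadjusted p = 0.0488 and q = 0.282 in the authors' deposited table). Exoc6 had 1.83 and 2.19 FPKM (log2 fold change -0.26), Exoc3 2.57 and 2.86 FPKM and Exoc2, which encodes the other RAL-binding subunit, 1.95 and 2.17 FPKM. Exoc1 had 5.82 and 5.04 FPKM and Exoc5 6.50 and 6.45 FPKM. The summed exocyst level in the knockout was 92.0% of that in wild type, without a spread to set beside it.

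Other genes of the same pathways, from lists of SNAREs, SNARE regulators, calcium sensors, Rabs, Rab effectors and exocyst partners, gave the surroundings of the members. Of 154 listed genes 107 were tested, and 6 of these (5.61%) passed the threshold in the authors' deposited table, 3 as higher and 3 as lower, beside 7.54% of all tested genes. Their median log2 fold change was -0.05. At an unadjusted p under 0.05 there were 7 higher and 9 lower among the 107, beside 8.36% and 9.11% of all tested genes. The 17 other SNAREs held 0 calls by Cuffdiff and 4 genes at an unadjusted p under 0.05 (23.5%, beside 17.5% of all tested genes). Stx1a, the syntaxin of neurons and islet cells, had the smallest p among them, at 2.78 FPKM in knockout and 4.15 FPKM in wild type (log2 fold change -0.58, q = 0.0787, authors' deposited table). Islet marker genes were higher in the same samples (160% of the wild-type sum).

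Of 8 tested synaptotagmins, synaptotagmin-like and related calcium sensors, 2 were called (25%, beside 7.54% of all tested genes). Syt15 fell from 4.59 to 2.79 FPKM (log2 fold change -0.72, q = 0.00152, authors' deposited table). Syt13, an atypical synaptotagmin expressed in islets, rose from 1.25 to 1.80 FPKM (log2 fold change 0.52, q = 0.0139, authors' deposited table), beside the higher islet markers. Of 36 other Rabs, 2 were called (5.56%, beside 7.54% of all tested genes). Rab31, a Rab of Golgi and endosome traffic, rose (1.47 and 0.991 FPKM, q = 0.00816, authors' deposited table). It passed the limit of 1 FPKM only through the knockout. Rab8b, the paralog of Rab8a, rose as well (1.47 and 1.06 FPKM, q = 0.0146, authors' deposited table). None of these Rabs fell, 26 of the 36 had the lower FPKM in the knockout (72.2%), and their median was -0.10.

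Among 25 regulators and effectors of Rabs, 2 fell in the authors' deposited table and none rose. The share called was 8%, beside 7.54% of all tested genes. Rph3al encodes NOC2, an effector of RAB3 and RAB27 proteins in endocrine and exocrine granules, and fell from 9.37 to 7.00 FPKM (log2 fold change -0.42, q = 0.0395, authors' deposited table). Rab11fip5, which encodes a RAB11 effector, fell from 4.08 to 3.06 FPKM (log2 fold change -0.41, q = 0.00816, authors' deposited table), while Rab11a itself had 61.1 FPKM in both genotypes. The 11 other SNARE regulators held 0 calls by Cuffdiff and 1 gene at an unadjusted p under 0.05 (9.09%, beside 17.5% of all tested genes). This was Baiap3, a Munc13 relative (1.85 and 0.904 FPKM, q = 0.261, authors' deposited table, in a shared interval). It passed the limit of 1 FPKM only through the knockout. The 10 exocyst partners held 0 calls and 0 genes at an unadjusted p under 0.05 by Cuffdiff. The smallest p among them was that of Ralgds, an activator of RAL proteins (3.42 and 2.71 FPKM, q = 0.594, authors' deposited table).

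**Figure D5:**
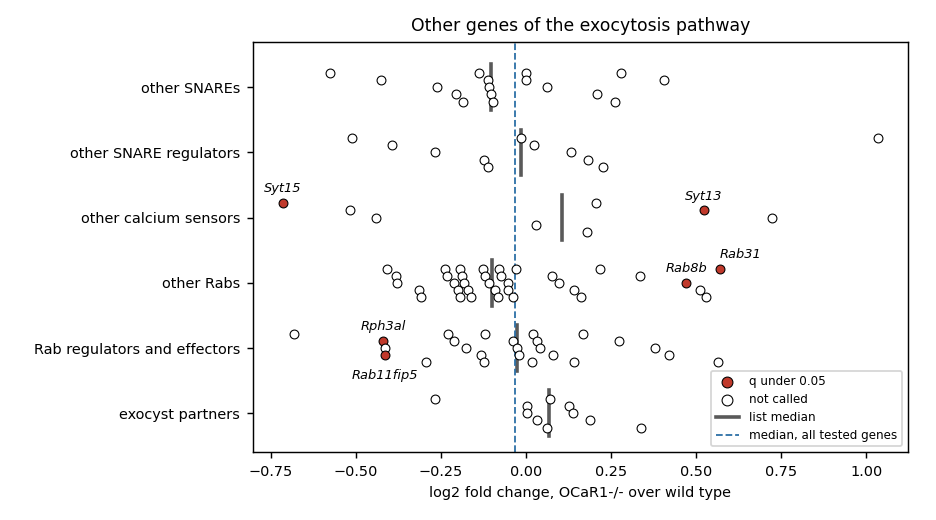
Log2 fold change of OCaR1-/- over wild type for the 107 tested genes of 6 further lists of the exocytosis pathway, with called genes in red and named, grey bars for list medians and a dashed line for the median of all tested genes (-0.03). Syt13, Rab31 and Rab8b lie to the right and Syt15, Rph3al and Rab11fip5 to the left, and the list medians lie between -0.10 and 0.10.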

How the data were processed

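Reads were processed with STAR 2.5.1b, Cufflinks 2.2.1 and Cuffdiff on GRCm38, per the submitters' processing notes. Annotation release, strand use, treatment of multiply mapped reads and Cuffdiff's scaling were not given in the sources used here. Per the file headers, the deposited table holds 1 FPKM value per genotype with a p-value and a q-value for each gene from the authors' test. Every row exceeds 1 FPKM in at least 1 genotype. The deposited fold-change column was not used, since 352 of its cells hold spreadsheet errors. Log2 ratios were recomputed from FPKM with no pseudocount (pandas 2.3.3, numpy 2.4.6), and calls are those of Cuffdiff at q under 0.05. No test was added; the adjustment was checked on simulated p-values. The p-values rest on 3 mice per genotype.

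The members, the pathway and marker lists and the alternatives were chosen with earlier results of these data known. All members are given. Of other lists, called genes, or else the gene with the smallest p, are named. Of the members, 7 share their interval with another row (Stx18, Snap29, Snap47, Vamp3, Rab3a, Rab26 and Exoc5). Gene models came from GENCODE M21 (GRCm38), promoter sequences from RefSeq.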

Additional observations from a re-analysis of the deposited data

How the results depend on the processing

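At q under 0.01, Stx2 stayed called and Stx4a, with q = 0.0216 and a log2 fold change of 0.47, did not, so that 1 member was called in place of 2, and 3 other exocytosis genes in place of 6. Among genes with at least 5 FPKM in either genotype, 1 member (Stx4a) and 1 other exocytosis gene were called, because the remaining called genes lie below that level. At q under 0.1 there were 2 members and 8 other genes. Adjusting the deposited p-values again over all tested genes, or leaving out genes that share their interval, gave 2 and 6. The latter filter removes only genes whose interval is identical to that of another row. It could not remove Stx4a, whose interval is longer than its gene model and matches no other row. The members' median log2 fold change ran from -0.08 to -0.01 over both pseudocounts, the filter at 5 FPKM, both scalings and the removal of shared intervals. Over both pseudocounts and both scalings Stx2 lay between 0.81 and 1.14 and Stx4a between 0.44 and 0.51. Leaving out single mice was not run, since the table used here holds no values per mouse. No paired analysis was possible because the columns combine the 3 libraries of each genotype and carry no replicate numbers.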
